A study of Mus musculus with 6 samples.

Results

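Smooth muscle cells and pericytes, together called mural cells, wrap the vessels of the heart, and the 10 genes described here are markers of the 2 cell types. Of these, 5 belong to the contractile apparatus of smooth muscle (Myh11, Tagln, Cnn1, Smtn and Mylk) and 5 are commonly used to recognise pericytes (Abcc9, Mcam, Pdgfrb, Rgs5 and Cspg4). They were picked by name, as the probe sets that the platform annotation assigns to 1 of these symbols alone, and each gene had 1 such probe set among the 21789 with a single symbol, out of 35556 on the array. Expression was measured on 6 Affymetrix arrays of left ventricle RNA from male C57BL/6 mice, 3 from MURC knockout mice labelled 11, 11 and 13 weeks old and 3 from wild-type mice labelled 13, 13 and 12 weeks old. MURC is the product of Cavin4 and a member of the cavin family, which coats caveolae, pits in the membrane of muscle and vessel cells. The labels name no other allele, agent or treatment, do not say how the gene was disrupted or in which cells, and do not state that the arrays come from separate animals, so the p-values cover the spread among these samples, which may be technical.

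Contractile smooth muscle shortens when calcium and calmodulin switch on a myosin light chain kinase, whose product lets the smooth muscle myosin pull on actin. Its contractile genes are classic targets of serum response factor with its partner myocardin, which bind a DNA element named the CArG box. Pericytes sit on capillaries, depend on platelet-derived growth factor from the endothelium, and carry an ATP-sensitive potassium channel that couples their metabolism to vessel tone. Several of the pericyte markers are not exclusive in heart muscle: Abcc9 is also expressed by cardiomyocytes and Mcam by endothelial cells.

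Few probe sets passed the adjusted threshold of 0.05 with the values as deposited, and the count ran from 0 to 361 over the alternatives. Cavin4, the targeted gene, had log2 signals of 5.38, 5.74 and 5.59 in the knockout arrays, against 8.75, 8.62 and 8.07 in the wild-type arrays, and fell by 2.91 on the log2 scale (limma adjusted p = 0.012). It was the 1 probe set of 24898 tested that passed the adjusted threshold of 0.05. Leaving out one array ended that call in 3 cases: the limma adjusted p was 0.0646 when knockout replicate 1 was dropped (log2 change -2.82), 0.118 for knockout replicate 3 (-2.92) and 0.0777 for wild-type replicate 1 (-2.78). Over the 15 alternatives it ran from 9.17e-06 to 0.118. The labels do not say whether its probes lie in a deleted exon. Of the 24898 probe sets tested, 9985 measured higher and 14700 lower in the knockout. An unadjusted p under 0.05 was reached by 13.7% of the probe sets tested, 4.71% higher and 9.02% lower in the knockout. The 3 knockout arrays lay wholly above the 3 wild-type arrays at 6.12% of the probe sets and wholly below them at 12.9%, together 19.0%. Of those reaching an unadjusted p under 0.05, 34.3% had the higher signal in the knockout as deposited, 48.8% after quantile normalization and 49.9% without wild-type replicate 1. Knockout replicate 2 stood apart in the atrial genes Myl7 and Myl4. Its Myl7 log2 signal was 7.22, with 3.87 and 4.11 in the other knockout arrays and 3.61 to 4.06 in the wild-type arrays. Its Myl4 log2 signal was 8.67, with 5.61 and 5.53 in the other knockout arrays and 5.41 to 5.55 in the wild-type arrays. The 6 atrial markers summed to 1852 to 3375 units of linear signal in knockout arrays and 1717 to 2341 in wild-type arrays. Bmp10 and Sln were below the level required for testing. Nppa, the brightest of the 6, measured 11.44 in knockout replicate 2, with 11.13 in wild-type replicate 1. Dkk3 did not stand apart, at 4.51 in knockout replicate 2 and 4.5 in wild-type replicate 3. Because of Myl7 and Myl4, the changes of the 10 genes and of the lists are also given without knockout replicate 2.

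The 10 genes did not shift one way: Myh11 and Tagln were higher in every knockout array than in any wild-type array, while Abcc9, Mcam and Smtn were lower in every knockout array. None of the 10 passed the adjusted threshold, where 0.00402% of all probe sets did, and 4 had an unadjusted p under 0.05 in limma, Myh11 and Tagln higher and Abcc9 and Mcam lower, beside 4.71% and 9.02% of all probe sets. The arrays did not overlap for 2 members on the higher side and 3 on the lower side, beside 6.12% and 12.9% of all probe sets. Over the 5 contractile genes the median log2 change was 0.16, over the 5 pericyte genes it was -0.15, and over all probe sets tested it was -0.04. All 10 passed the filter on low values, which used the mean of both groups.

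**Figure D1:**
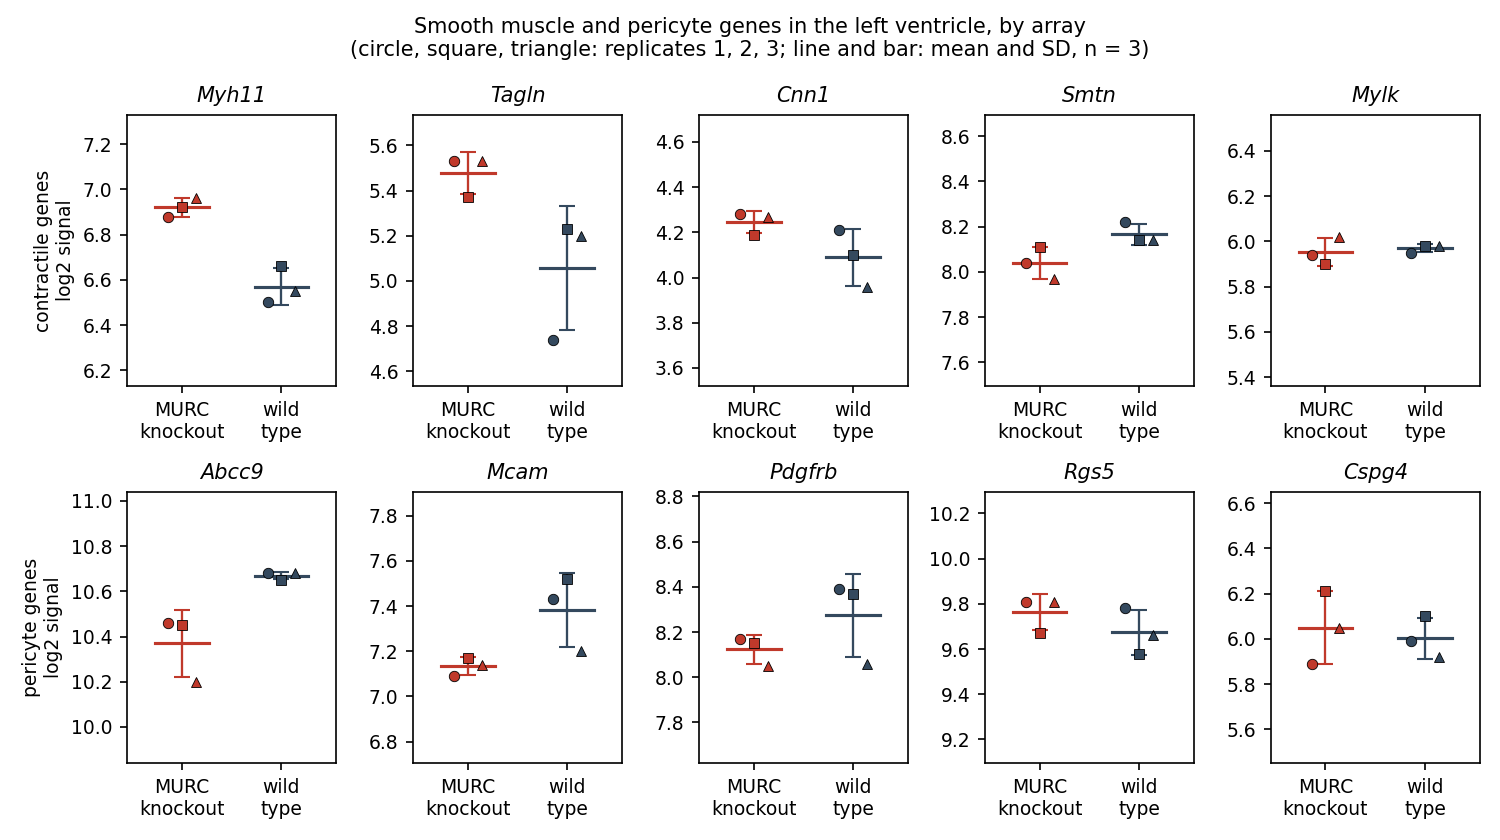
Log2 signal of the 5 contractile genes (top) and 5 pericyte genes (bottom) on each array, MURC knockout left and wild type right, with the mean and SD of 3 arrays; every panel spans the same range of log2 units. Myh11 and Tagln lie higher in all knockout arrays, Abcc9, Mcam and Smtn lie lower, and the genotypes overlap for Cnn1, Mylk, Pdgfrb, Rgs5 and Cspg4.

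Myh11 (probe set 10437885) encodes the smooth muscle myosin heavy chain, the motor of the contractile cell and its most specific marker. Its log2 signal was 6.88, 6.92 and 6.96 in the knockout, against 6.50, 6.66 and 6.55 in the wild type. All 3 knockout arrays were higher and lay closer together than the wild-type arrays. The means were 6.92 ± 0.04 in knockout arrays and 6.57 ± 0.08 in wild-type arrays (SD, n = 3 each), a log2 difference of 0.35 (SE 0.073) or 1.27-fold, with a limma adjusted p of 0.113. Without knockout replicate 2 the change was also 0.35, and over the 15 alternatives it ran from 0.32 to 0.39 and the adjusted p from 0.0456 to 0.306. The value of 0.0456 came from testing annotated probe sets alone, where 2.01% of the 17934 tested passed.

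Tagln (probe set 10593123), which encodes the actin-binding protein transgelin, had the largest log2 difference of the 10. Its log2 signal was 5.53, 5.37 and 5.53 in the knockout, against 4.74, 5.23 and 5.20 in the wild type. The groups did not overlap, but wild-type replicate 1 was far below the other wild-type arrays. The means were 5.48 ± 0.09 in knockout arrays and 5.06 ± 0.27 in wild-type arrays (SD, n = 3 each), a log2 difference of 0.42 (SE 0.145) or 1.34-fold, with a limma adjusted p of 0.276. Without wild-type replicate 1 the log2 change was 0.26, and without knockout replicate 2 it was 0.47.

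Cnn1, which encodes calponin, an actin-binding brake on the myosin motor, was dim and less clear. Its log2 signal on probe set 10583809 was 4.28, 4.19 and 4.27 in the knockout, against 4.21, 4.10 and 3.96 in the wild type. The knockout arrays lay at the upper end, with wild-type replicate 1 between them. The log2 change was 0.16 (SE 0.111, limma adjusted p = 0.602), at a signal between the 38.8th and the 44.7th percentile of each array, not far above the 30th percentile required for testing. It was 0.09 without wild-type replicate 3, and 0.185 with no overlap when knockout replicate 2 was dropped.

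The other contractile members did not share the higher signal of Myh11 and Tagln. Smtn (probe set 10383731) encodes smoothelin, a cytoskeletal protein of contractile smooth muscle with forms also found outside it, and its log2 signal was 8.04, 8.11 and 7.97 in the knockout, against 8.22, 8.14 and 8.14 in the wild type. Every knockout array was lower, by a margin of hundredths of a log2 unit at the closest pair, and the log2 change was -0.13 (SE 0.064, limma adjusted p = 0.447). Mylk (probe set 10435345) encodes the myosin light chain kinase and had log2 signals of 5.94, 5.90 and 6.02 in the knockout, against 5.95, 5.98 and 5.98 in the wild type. The groups overlapped, and the log2 change of -0.02 (SE 0.075, limma adjusted p = 0.949) was above 0 after quantile normalization (0.01). Dropping knockout replicate 2 gave log2 changes of -0.16 for Smtn and 0.01 for Mylk.

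Among the pericyte genes, Abcc9 (probe set 10549108) was the clearest. It encodes the sulfonylurea receptor of the ATP-sensitive potassium channel in pericytes and smooth muscle and, in another splice form, in cardiomyocytes. Its log2 signal was 10.46, 10.45 and 10.20 in the knockout, against 10.68, 10.65 and 10.68 in the wild type. All knockout arrays were lower, and the wild-type arrays differed from each other by hundredths of a log2 unit. The means were 10.37 ± 0.15 in knockout arrays and 10.67 ± 0.02 in wild-type arrays (SD, n = 3 each), a log2 difference of -0.30 (SE 0.078), or 81.2% of the wild-type signal, with a limma adjusted p of 0.166. Over the 15 alternatives the log2 change ran from -0.41 to -0.21, with adjusted p between 0.071 and 0.3, and without knockout replicate 2 it was -0.34.

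Mcam (probe set 10584674) encodes an adhesion molecule of the immunoglobulin family on pericytes, smooth muscle and endothelium. Its log2 signal was 7.09, 7.17 and 7.14 in the knockout, against 7.43, 7.52 and 7.20 in the wild type. The knockout arrays were lower and close together, and wild-type replicate 3 stood just above them. The means were 7.13 ± 0.04 in knockout arrays and 7.38 ± 0.17 in wild-type arrays (SD, n = 3 each), a log2 difference of -0.25 (SE 0.093, limma adjusted p = 0.307). Without wild-type replicate 3 the log2 change was -0.34, and without knockout replicate 2 it was -0.27.

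Pdgfrb (probe set 10456046), the receptor through which platelet-derived growth factor recruits pericytes, had log2 signals of 8.17, 8.15 and 8.05 in the knockout, against 8.39, 8.37 and 8.06 in the wild type. Wild-type replicates 1 and 2 were above all knockout arrays and wild-type replicate 3 was among them. The log2 change was -0.15 (SE 0.099, limma adjusted p = 0.574), and it depended on single arrays, at -0.16 when knockout replicate 2 was dropped and at -0.09, -0.10 and -0.26 when the wild-type arrays 1, 2 and 3 were each dropped in turn. Mcam and Pdgfrb therefore had the same wild-type array nearest to the knockout arrays.

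The other pericyte genes were not lower in the knockout. Rgs5 (probe set 10351455), a regulator that speeds the shut-off of G protein signals, had log2 signals of 9.81, 9.67 and 9.81 in the knockout, against 9.78, 9.58 and 9.66 in the wild type, with a log2 difference of 0.09 (SE 0.072, limma adjusted p = 0.655). Cspg4 (probe set 10585588), the membrane proteoglycan known as NG2, had log2 signals of 5.89, 6.21 and 6.05 in the knockout, against 5.99, 6.10 and 5.92 in the wild type, with a log2 difference of 0.05 (SE 0.104, limma adjusted p = 0.888). Both overlapped between genotypes, and without knockout replicate 2 Cspg4 measured -0.03. Rgs5 measured 0.14, with no overlap, when either knockout replicate 2 or wild-type replicate 1 was dropped, and 0.04 without wild-type replicate 2.

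The contrast between the gene sets was taken on each array as the mean log2 signal of the 5 contractile genes minus that of the 5 pericyte genes. Its level has no meaning of its own, since probe sets differ in brightness, and differences between arrays are what it shows. The contrast was -2.15, -2.23 and -2.10 in the knockout, against -2.53, -2.42 and -2.34 in the wild type. Every knockout array was higher than every wild-type array, and the smallest difference between a knockout and a wild-type array was 0.11. The means were -2.16 ± 0.07 in knockout arrays and -2.43 ± 0.10 in wild-type arrays (SD, n = 3 each), a difference of 0.27 (SE 0.068) in the direction of contractile genes. Since the members were chosen with results of these arrays known, no p-value is given for it.

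Both sets contributed to that difference, in opposite directions. The contractile mean was 6.13, 6.10 and 6.15 in the knockout, against 5.92, 6.02 and 5.97 in the wild type, without overlap and 0.16 higher. The pericyte mean was 8.28, 8.33 and 8.25 in the knockout, against 8.45, 8.44 and 8.30 in the wild type, with a difference of -0.11 and an overlap between knockout replicate 2 and wild-type replicate 3. Without knockout replicate 2 the contrast differed by 0.305, and with each of the 6 arrays left out in turn by 0.22 to 0.32. With each member left out in turn, which was added with the values in view, it differed by 0.20, without Tagln, to 0.34, without Smtn.

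With the median of the 5 genes in place of the mean, the contrast differed by 0.13 and the contractile value by -0.02, since the median on each array was then the signal of Mylk for the contractile set and of Pdgfrb for the pericyte set. The positive contractile difference thus rests on Myh11, Tagln and Cnn1, and not on the set as a whole. In whole ventricle RNA, fewer cells of a type and less RNA per cell cannot be told apart.

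**Figure D2:**
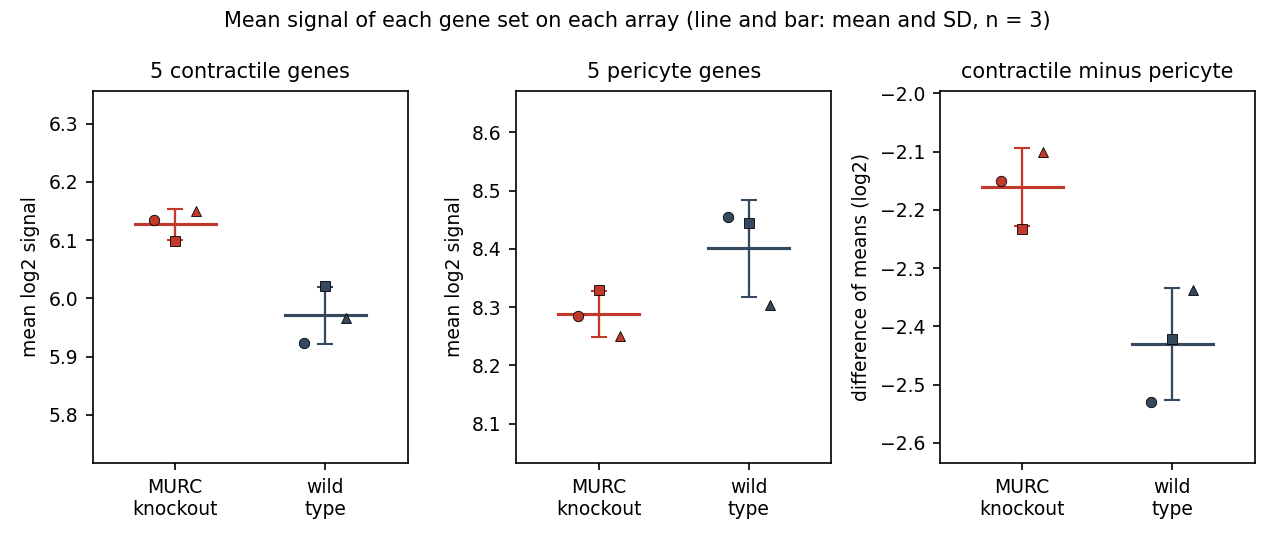
Mean log2 signal of the 5 contractile genes, of the 5 pericyte genes and the difference of the 2 means on each array, MURC knockout left and wild type right (circle, square and triangle are replicates 1, 2 and 3; line and bar are mean and SD, n = 3). The contrast lies between -2.23 and -2.10 in the knockout and between -2.53 and -2.34 in the wild type.

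Further contractile genes of smooth muscle were read from a list of 25, of which all were tested. In the knockout 17 were higher and 8 lower, beside 9985 and 14700 of the 24898 probe sets tested. Their median log2 change was 0.07, and that over all probe sets was -0.04. An unadjusted p under 0.05 was reached by 3 higher and 3 lower genes, beside 4.71% and 9.02% of all probe sets, and none passed after adjustment with the values as deposited. In other settings Pcp4l1 passed in 5 of 15, with a limma adjusted p down to 0.00623, and Ppp1r12b and Hspb6 passed when annotated probe sets alone were tested (0.0256 and 0.0279). The median was 0.07 when knockout replicate 2 was dropped, 0.04 without knockout replicate 1 and 0.02 with age as a covariate. Many of these genes are also expressed in cardiomyocytes.

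Myl9, which encodes the regulatory light chain that the kinase acts on and is found chiefly in smooth muscle and non-muscle cells, was higher, as Myh11 was. Its log2 signal was 6.93, 6.87 and 6.96 in the knockout, against 6.54, 6.73 and 6.68 in the wild type, without overlap and with a log2 difference of 0.27 (SE 0.077, limma adjusted p = 0.202). As with Myh11 and Tagln, wild-type replicate 1 was the lowest array. Acta2, the smooth muscle actin and the commonest marker of these cells, measured 8.60, 8.55 and 8.55 in the knockout, against 8.23, 8.48 and 8.69 in the wild type. The knockout arrays lay within the spread of the wild-type arrays, and the log2 change was 0.10 (SE 0.111, limma adjusted p = 0.761).

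The other genes of that list with an unadjusted p under 0.05 differed in direction. Ppp1r12b, a targeting subunit of the myosin phosphatase that switches contraction off, measured a log2 change of 0.41 (limma adjusted p = 0.106) on its brightest probe set, but its 7 probe sets ran from 0.03 to 0.41. Tpm1, a tropomyosin that is abundant in cardiomyocytes, measured 0.14 higher (limma adjusted p = 0.297). On the lower side, Pcp4l1 measured a log2 change of -0.49 (limma adjusted p = 0.0614), Hspb6, a small heat shock protein that relaxes smooth muscle when phosphorylated, one of -0.41 (limma adjusted p = 0.118) and Csrp1, a LIM-domain partner of serum response factor, one of -0.22 (limma adjusted p = 0.316). Pcp4l1 and Hspb6 were lower without overlap, and Csrp1 with overlap. Actg2, the enteric smooth muscle actin, and Vcl, vinculin, were also lower without overlap, at -0.21 and -0.12. The list's summed linear signal, in which bright genes such as Tpm1 and Hspb6 weigh most, was 15197 to 15530 in knockout arrays and 15779 to 16019 in wild-type arrays, the opposite direction to its median.

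Further mural cell genes were read from a list of 26, of which 23 were tested. In the knockout 6 were higher and 17 lower, beside 9985 and 14700 of the 24898 probe sets tested. Their median log2 change was -0.02, near the -0.04 of all probe sets, and it was 0.02 after quantile normalization, -0.04 when knockout replicate 2 was dropped and -0.07 without wild-type replicate 3. Of the 23, 1 had an unadjusted p under 0.05, beside 13.7% of all probe sets: Kcnj8, which encodes the pore subunit of the channel that Abcc9 regulates. Its log2 signal was 8.07, 8.25 and 7.96 in the knockout, against 8.36, 8.55 and 8.19 in the wild type. The groups overlapped, since wild-type replicate 3 lay below knockout replicate 2, and the log2 change was -0.27 (SE 0.112, limma adjusted p = 0.346). The 2 subunits of this channel, Kcnj8 and Abcc9, thus measured log2 changes of -0.27 and -0.30. The genes next in order of p were Art3 at 0.22, the arterial connexin gene Gja4 at -0.16 and the endothelin receptor gene Ednrb at -0.21, all with overlap.

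**Figure D3:**
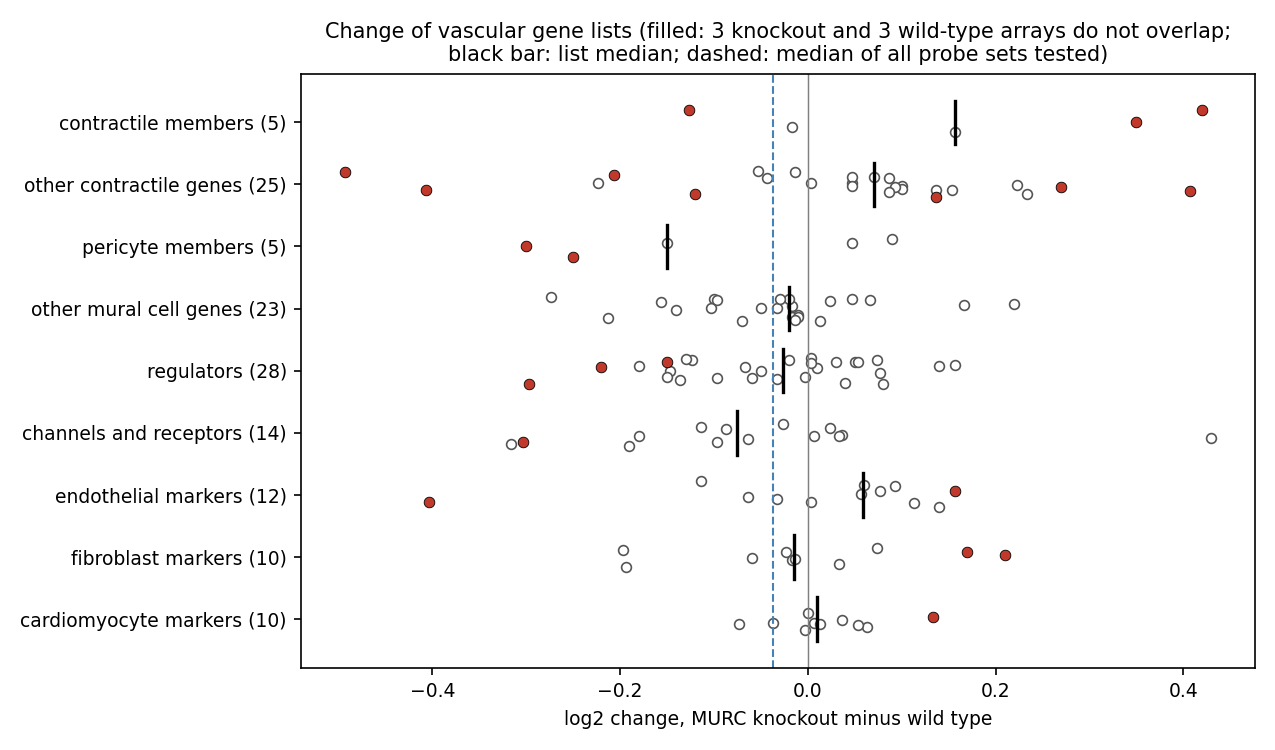
Log2 change (MURC knockout minus wild type) of each tested gene in the contractile and pericyte sets, the companion lists and the marker lists of 3 other cell types, with the number of genes in brackets. Filled points are genes whose knockout and wild-type arrays do not overlap, black bars are list medians and the dashed line is the median of all probe sets tested; the contractile median lies at 0.16, the pericyte median at -0.15 and the other mural cell genes at -0.02.

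Regulators and ligands of the mural programme were read from a list of 29, of which 28 were tested. In the knockout 12 were higher and 16 lower, a split near the 9985 and 14700 of the 24898 probe sets tested. Their median log2 change was -0.03, and with an unadjusted p under 0.05 there were none higher and 3 lower, beside 4.71% and 9.02% of all probe sets. The median was -0.04 when knockout replicate 2 was dropped and 0.005 without wild-type replicate 1. Srf, the gene of serum response factor, measured 7.61, 7.77 and 7.75 in the knockout, against 7.97, 7.81 and 7.72 in the wild type, a log2 difference of -0.12 (SE 0.085, limma adjusted p = 0.597). Myocd, the gene of myocardin, measured 8.16, 8.29 and 7.97 in the knockout, against 8.34, 8.38 and 8.14 in the wild type, a log2 difference of -0.15 (SE 0.102, limma adjusted p = 0.598). Both overlapped between genotypes, and which cells of the ventricle their signal came from was not tested.

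For the pericyte signals, Pdgfb, the endothelial ligand of the receptor encoded by Pdgfrb, measured a log2 difference of 0.01 (SE 0.082) and Notch3, the Notch receptor of mural cells, one of -0.05 (SE 0.08), with limma adjusted p of 0.971 and 0.837. Pdgfa, a ligand of the related alpha receptor, measured 7.03, 7.02 and 6.82 in the knockout, against 7.25, 7.28 and 7.23 in the wild type, a log2 difference of -0.30 (SE 0.079, limma adjusted p = 0.176). Gata6, a transcription factor of vascular smooth muscle and cardiomyocytes, measured a log2 change of -0.22 and Rhoa, the small GTPase that promotes smooth muscle contraction, one of -0.15, each without overlap, and Tgfb1 one of -0.18 with overlap. The Rhoa value is from its brightest probe set, and its other probe set measured -0.17 with overlap.

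Channels, receptors and cyclic nucleotide enzymes of smooth muscle were read from a list of 20 symbols, of which 14 were tested. In the knockout 5 were higher and 9 lower, a split near the 9985 and 14700 of the 24898 probe sets tested. Their median log2 change was -0.08. This median moved with single arrays, to -0.02 without knockout replicate 1 and -0.12 when knockout replicate 2 was dropped. With an unadjusted p under 0.05 in limma there were 1 higher and 2 lower, beside 4.71% and 9.02% of all probe sets. Agtr1a, the receptor for the vasoconstrictor angiotensin, measured 7.68, 7.73 and 7.53 in the knockout, against 8.07, 7.92 and 7.86 in the wild type, without overlap and with a log2 difference of -0.30 (SE 0.084, limma adjusted p = 0.193). Pde3a, a phosphodiesterase of smooth muscle and cardiomyocytes, measured -0.32, and Kcna5, a voltage-gated potassium channel gene, measured 0.43, both with overlap. Adra1b, an adrenergic receptor that constricts vessels, measured -0.18.

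The promoter sequences bear on which of these genes carry the CArG box near their start. RefSeq promoter windows of GRCm38.p6, from 250 bases before the start to 50 after it, were found for 7 of the 10 members, all but Myh11, Tagln and Pdgfrb. None of the 7 windows held a CArG box, which occurs in 1.63% of 32851 windows. The box was present in the window of Myl9, shown here because this gene, Myh11 and Tagln were all higher in every knockout array, with its first base 161 bases before the start. The windows of the channel genes Abcc9 and Kcnj8 are shown because the pair lies side by side on chromosome 6, on the same strand, and both measured lower. Each held the letters TGGGAA, searched on both strands as the core of the motif of RBPJ, the DNA-binding partner of Notch, which 25.6% of all windows hold. The Abcc9 match overlaps one to CATTCC, the MCAT motif of TEAD factors, which 14.7% of all windows hold. The Kcnj8 match does not lie before the start. Of the 7 member windows, 2 held the RBPJ motif, those of Smtn and Abcc9. The MCAT motif was in 3, those of Smtn, Mylk and Abcc9, so neither motif is particular to the channel genes. Capitals mark the CArG box in Myl9 (chr2:156775214-156775513, plus strand), both overlapping motifs in Abcc9 (chr6:142702225-142702524, minus strand) and the RBPJ motif in Kcnj8 (chr6:142571565-142571864, minus strand), each written 5′ to 3′ on its own strand. A match is a description of the letters and not a site of binding.
Myl9: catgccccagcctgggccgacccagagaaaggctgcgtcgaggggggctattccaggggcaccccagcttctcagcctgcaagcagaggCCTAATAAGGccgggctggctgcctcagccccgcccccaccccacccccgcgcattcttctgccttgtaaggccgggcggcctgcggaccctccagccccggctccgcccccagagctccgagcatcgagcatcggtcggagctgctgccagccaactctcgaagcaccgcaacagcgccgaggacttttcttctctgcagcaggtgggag
Abcc9: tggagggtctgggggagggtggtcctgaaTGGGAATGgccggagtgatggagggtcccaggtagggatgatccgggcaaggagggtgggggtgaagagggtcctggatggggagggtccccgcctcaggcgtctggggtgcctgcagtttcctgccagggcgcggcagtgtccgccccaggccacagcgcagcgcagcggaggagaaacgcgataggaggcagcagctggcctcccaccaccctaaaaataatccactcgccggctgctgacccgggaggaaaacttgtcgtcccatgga
Kcnj8: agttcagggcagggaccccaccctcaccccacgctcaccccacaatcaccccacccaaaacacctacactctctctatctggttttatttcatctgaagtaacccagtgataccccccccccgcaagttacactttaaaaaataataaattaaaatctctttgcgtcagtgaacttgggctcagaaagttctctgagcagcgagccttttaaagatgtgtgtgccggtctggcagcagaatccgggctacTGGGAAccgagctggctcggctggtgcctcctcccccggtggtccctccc

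Levels of the other cell types of the ventricle were set beside the members. All 12 endothelial markers were tested, 8 higher and 4 lower in the knockout, beside 9985 and 14700 of the 24898 probe sets tested. Their median log2 change was 0.06, and their summed linear signal was 4647 to 4855 in knockout arrays and 4250 to 5097 in wild-type arrays. The 10 fibroblast markers had a median of -0.01 and summed to 5821 to 6420 in knockout arrays and 5632 to 5988 in wild-type arrays. The 10 cardiomyocyte markers had a median of 0.01 and summed to 54116 to 54937 in knockout arrays and 53639 to 54870 in wild-type arrays. In each of these sums the genotypes overlapped. Single markers still differed, with an unadjusted p under 0.05 in limma for 1 endothelial, 2 fibroblast and 1 cardiomyocyte marker, beside 13.7% of all probe sets. Cldn5 (endothelial) measured a log2 change of -0.40. Gsn and Dpt (fibroblast) measured 0.21 and 0.17, and Ckm (cardiomyocyte) measured 0.13. The 5 pericyte genes summed to 2546 to 2790 in knockout arrays and 2924 to 3091 in wild-type arrays, and the 5 contractile genes to 506 to 517 in knockout arrays and 491 to 501 in wild-type arrays, both without overlap. The pericyte sum follows Abcc9, its brightest gene, at 1176 to 1409 in knockout arrays and 1607 to 1641 in wild-type arrays. Without Abcc9, a choice made with the values in view, the other 4 genes summed to 1317 to 1381 in knockout arrays and 1284 to 1451 in wild-type arrays, with overlap. Their mean log2 signal then differed by -0.07, also with overlap. The leukocyte markers had a median of -0.18, with 8 of 9 tested genes lower, beside 14700 of the 24898 probe sets tested. Cd79a was below the level required for testing. The 10 leukocyte markers summed to 1256 to 1546 in knockout arrays and 1360 to 1855 in wild-type arrays, with overlap. Of the 9, 1 had an unadjusted p under 0.05 in limma, beside 13.7% of all probe sets: C1qb, at a log2 change of -0.51. The part of any of these in the results on mural genes was not tested.

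Age differed between the arrays, and with age as a covariate the contrast differed by 0.28. In that fit the log2 change of Abcc9 was -0.41, that of Myh11 was 0.38, that of Tagln was 0.41 and that of Mcam was -0.19. The direction of these 4 genes was the same in all 15 alternatives, with an unadjusted p under 0.05 in 15 for Myh11, 15 for Abcc9, 12 for Tagln and 9 for Mcam. These 4 genes were picked by their p in the main fit of the same arrays. Their groups did not overlap, so leaving out an array could not reverse them. Changing only the filter, the variance model or the replicate block left their log2 changes as they were. The shared direction is therefore no independent support.

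**Figure D4:**
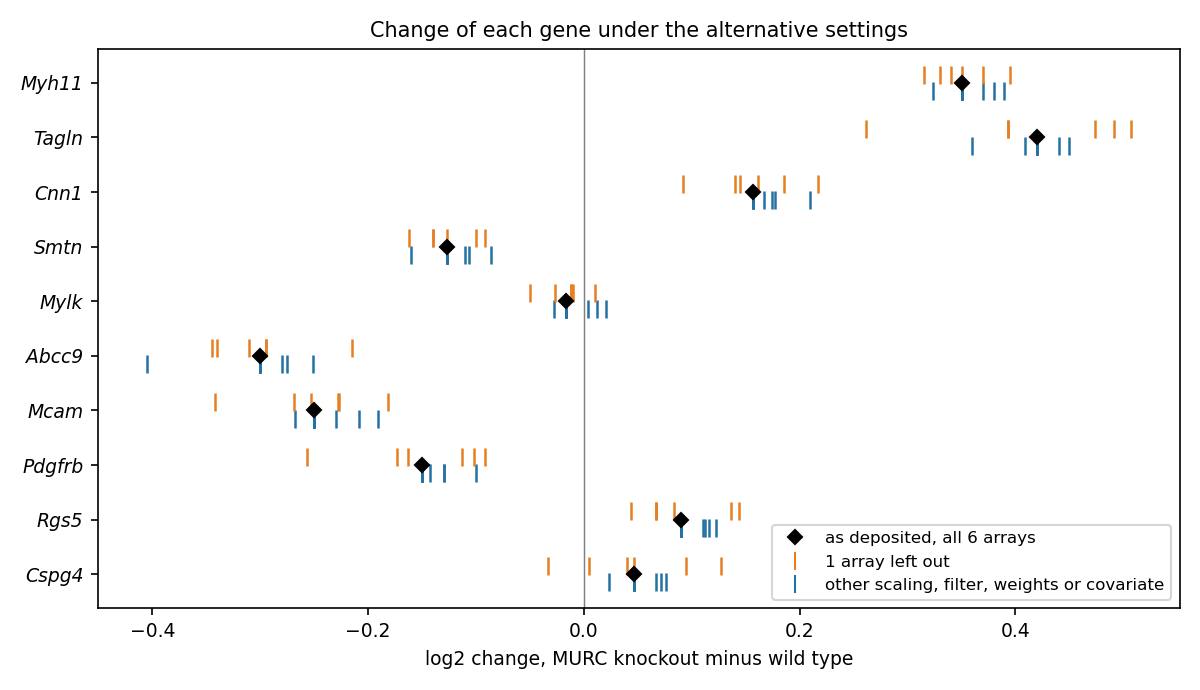
Log2 change (MURC knockout minus wild type) of each of the 10 genes as deposited (diamond), with 1 array left out (orange ticks) and with another scaling, filter, weighting or covariate (blue ticks). Myh11, Tagln, Cnn1 and the pericyte gene Rgs5 stay above 0 and Smtn, Abcc9, Mcam and Pdgfrb below 0 in the settings run, while Mylk and Cspg4 cross it.

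The genes whose array-to-array pattern was nearest to 3 of the members were found by the root mean square deviation between values centred on their own mean over the 6 arrays, among 15288 other single-symbol genes. Nearest to Myh11 were Diras2, Hypk, Srrt and Ift57, with deviations of 0.0221 to 0.0346 log2 units against a spread of 0.183 for Myh11 itself. These 4 measured 0.31 to 0.37 higher in the knockout, which follows from their selection, since the pattern matched includes the genotype difference. Nearest to Rgs5 were U2af1l4, Ccdc9, Fam162a and Dctn1, with deviations of 0.00764 to 0.0222 against a spread of 0.0871. Nearest to Cspg4 were Nmrk2, Slc20a1, Frem1 and Pgap4, with deviations of 0.0269 to 0.0309 against a spread of 0.109. With 6 arrays and so many genes, some genes match any pattern closely, and none of the 12 is on the smooth muscle, mural or regulator lists.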

How the data were processed

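The deposited table holds log2 values for 35556 probe sets on 6 arrays. The submitters' processing notes name MAS5. How the authors summarized, corrected and scaled these log2 values, and the genome build, is not given in the sources. That the values, 0.46 to 13.72, are log2 was settled from their range. They were used as deposited. The platform annotation supplied gene names, with symbols updated through the RefSeq table of GRCm38.p6 for 21698 probe sets. Genotypes were compared as knockout minus wild type with limma 3.58.1 in R 4.3.3 (lmFit, eBayes with an intensity trend, two-sided), over the 24898 probe sets whose mean reached the 30th percentile (3.45), with Benjamini-Hochberg adjustment over all of them. The brightest probe set stood for a gene. The fit was run on simulated arrays with known changes, as a check of the code and not of the results given here. SDs are over 3 arrays, and their number limits the precision. The members and lists were chosen with earlier results of these data known. Genes named are the 10 members, Cavin4, list genes with an unadjusted p under 0.05 or, up to 4 a list, the smallest p, and Srf, Myocd, Notch3, Pdgfb and the nearest genes. Acta2, Actg2, Vcl and the atrial markers named were added after their values were seen. Alternatives were other scalings, filters, variance models, weights, age, a replicate block, annotated probe sets only and each array left out.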

Additional observations from a re-analysis of the deposited data

How the results depend on the processing

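The count of probe sets past the adjusted threshold, 1 as deposited, was 130 after quantile normalization, 105 after median centring, 48 with the filter at the 50th percentile, 361 among annotated probe sets, 126 with array weights, 34 with age as a covariate and 0 with a replicate block, and 0 to 11 with 1 array left out: leaving out wild-type replicate 2 gave 11, knockout replicate 2 gave 2, and each of knockout replicates 1 and 3 and wild-type replicate 1 gave 0. The cause was not tested. Of the 10 members, 0 passed in the main test and 1, Myh11, among annotated probe sets. Pcp4l1 passed in 5 alternatives (adjusted p 0.00623 to 0.045), and Ppp1r12b, Hspb6 and the leukocyte marker C1qb passed among annotated probe sets (0.0256, 0.0279 and 0.037). The per-array median in place of the mean gave -0.017 for the contractile set and 0.13 for the contrast, for the reason given with it. Mylk measured 0.012 after quantile normalization, 0.0033 after median centring and 0.020 with age as a covariate, and -0.05 to 0.01 with 1 array left out, and Cspg4 measured -0.033 to 0.13. The median of the other mural cell genes was 0.018 after quantile normalization, and that of the regulators 0.012 after it and -0.054 to 0.005 with 1 array left out. Cavin4 had an adjusted p of 0.0754 with the replicate block and up to 0.118 with 1 array left out, at log2 changes of -3.115 to -2.775. The other members kept their direction and their side of the threshold in the alternatives run, and the contrast and the pericyte mean kept their direction. Arrays with the same replicate number did not deviate together (correlations of -0.059, 0.021 and -0.057). This shows no shared deviation, but it cannot settle whether the numbers pair the samples, which the labels do not state. The replicate block brought 0 members past the threshold. Background can compress the log2 differences of dim probe sets such as Cnn1.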
